A study of Homo sapiens with 9 samples.

Results

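The cyclins and cyclin-dependent kinases (CDKs) that carry cells from the G1 phase into DNA replication were examined in the established human cell line HCC827, which comes from a lung adenocarcinoma. The set held 10 genes out of 60675 rows of the count table, chosen by name and found by their Ensembl identifiers in GENCODE release 29. They were the D cyclins CCND1, CCND2 and CCND3, the E cyclins CCNE1 and CCNE2, the A cyclin CCNA2, the kinases CDK2, CDK4 and CDK6, and the phosphatase CDC25A. The cells stably expressed hairpin G1 or hairpin G7, both directed against CBX5, or the control hairpin NS. Below, G1 on its own names the hairpin, and the cell cycle stage is written as G1 phase. There were 3 libraries per group, 9 in all, which the series' design text calls biological replicates. The labels do not say whether the libraries of a group came from separate transductions, so the p-values measure the spread between these libraries, which may be technical. The labels name no EGFR inhibitor for any library, and all groups carried a hairpin.

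D cyclins bind CDK4 or CDK6 and begin the phosphorylation of the retinoblastoma protein, which holds back the E2F transcription factors. Cyclin E and then cyclin A, each with CDK2, complete that phosphorylation and drive DNA replication. CDC25A removes inhibitory phosphates from these kinases. The genes of cyclin E, cyclin A and CDC25A are themselves known E2F targets, whereas D cyclin genes answer mostly to growth factor signals, and HCC827 cells are known for an activating EGFR mutation. Messenger RNA levels were measured here, not protein or kinase activity.

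Library totals ran from 12701561 to 22372353 counts. Values are given as CPM, counts divided by library size, scaled by TMM (a factor per library that balances composition), and fold changes as log2. The targeted gene was lower with both hairpins. CBX5 (ENSG00000094916), which encodes heterochromatin protein HP1 alpha, had 142, 142 and 143 CPM with G1, 204, 204 and 201 CPM with G7, and 369.7, 377 and 361 CPM with NS. Epithelial markers were abundant, their 7 genes summing to 14673 to 14925 CPM with G1, 12584 to 13186 CPM with G7 and 10719 to 11634 CPM with NS. Of the endothelial markers, PECAM1 averaged 55.7 CPM with G1, 73.4 with G7 and 73.4 with NS and CDH5 averaged 17.6, 14.8 and 14.0 CPM in the same order, while VWF had at most 11 counts in a library. The fibroblast markers summed to 13.2 to 15.9 CPM and the leukocyte markers to 0.738 to 1.49 CPM across all libraries. The part of the endothelial genes in the results was not tested. G7 replicate 3 stood apart from the other G7 libraries. Its chi-square against them, divided by the degrees of freedom, was 24.7 and 19.5, where those gave 1.51 with each other. It also had the highest share of mitochondrial counts, 19.8%, in a range that began at 13.4%. In bulk RNA, more cells in S phase and more message per cell cannot be told apart.

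Most of the genes with usable counts were higher with the hairpins against CBX5, and CDK6 was lower. Of the 10 members, 8 passed the filter on low counts and were tested across 13264 genes with edgeR's quasi-likelihood test and Benjamini-Hochberg adjustment, a gene being called at an adjusted p under 0.05. With G1 against NS, 7 of the 8 were called higher and 1 lower, where 30.4% of all tested genes were called higher and 28.7% lower (59.1% in either direction). With G7 against NS, 6 were called higher, 1 lower and 1 was not called, where the shares over all tested genes were 13.1% higher and 9.64% lower (22.7% in either direction). Between the hairpins, 6 were called higher with G1 than with G7 and 2 were not called, where 23.3% of all tested genes were called higher and 21.6% lower (44.9% in either direction). The libraries of 2 groups did not overlap for all 8 tested members with G1 against NS, 7 with G7 against NS and 6 with G1 against G7, where 64.1%, 35.3% and 53.6% of all tested genes had no overlap in these comparisons. The median log2 change of the 8 was 1.12 with G1 and 0.47 with G7, beside medians of -0.01 and 0.01 over all tested genes. The comparisons of G1 and of G7 with NS share the same control libraries, so they are not independent of each other. Members were chosen with earlier results of these data known, so their excess over the shares of all tested genes is a description only.

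**Figure D1:**
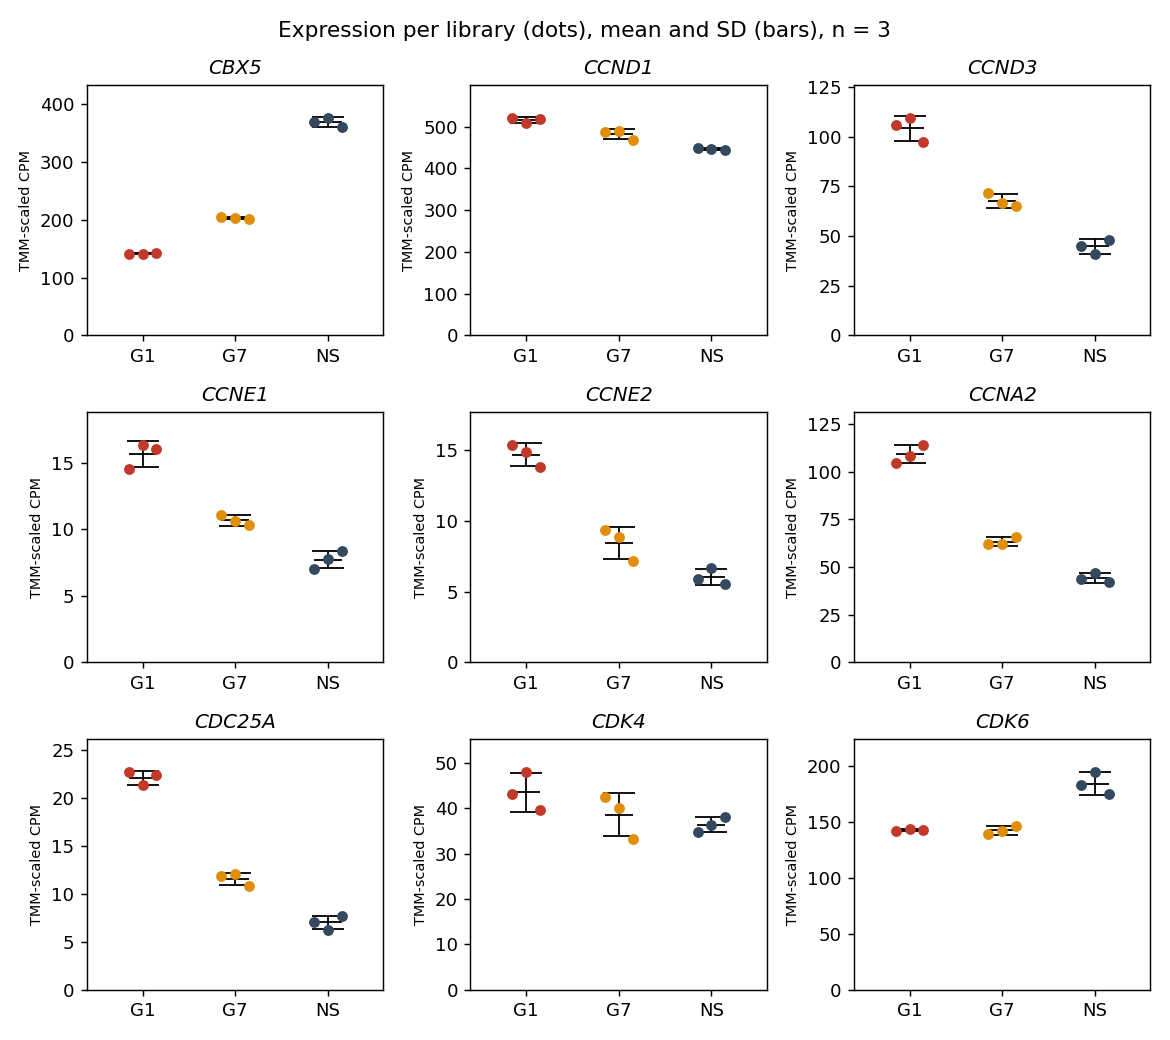
TMM-scaled CPM of CBX5 and of the 8 tested members in each library (dots), with the mean and SD of each group (bars, n = 3). CCND3, CCNE1, CCNE2, CCNA2 and CDC25A stood highest with G1, between with G7 and lowest with NS, while CDK6 lay at 139 to 147 CPM with either hairpin and at 175 to 195 CPM with NS.

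CCND1 and CCND3 were the D cyclins with usable counts, and they differed in how much they changed. CCND3 (ENSG00000112576, GRCh38 chromosome 6, 41934933 to 42050357) had 106, 109.6 and 97.1 CPM with G1, 71.7, 66.4 and 65.1 CPM with G7, and 45.1, 41.0 and 48.1 CPM with NS. No library of one group reached the range of another. Its log2 change was 1.22 ± 0.06 (SE) with G1 (adjusted p = 1.17e-11, edgeR test) and 0.60 ± 0.06 with G7 (adjusted p = 3.26e-06). The direct difference between G1 and G7 was 0.62, at adjusted p = 1.33e-07.

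CCND1 (ENSG00000110092, chromosome 11, 69641087 to 69654474) is the D cyclin gene best known as a readout of growth factor signalling. It had 522, 508 and 518 CPM with G1, 488, 488 and 467 CPM with G7, and 448, 446 and 444 CPM with NS. The groups did not overlap, yet the steps between them were small. The log2 change with G1 was 0.21 ± 0.04 (SE; adjusted p = 1.37e-04, edgeR test), and 0.12 with upper quartile scaling (adjusted p = 0.00917). With G7 it was 0.11 at adjusted p = 0.0477, a call that was lost in 13 of 16 alternative settings. Leaving out any 1 library other than G7 replicate 3 ended it, with values of 0.10 to 0.11 and adjusted p between 0.0572 and 0.146, and upper quartile scaling gave 0.08 (adjusted p = 0.125). The difference between G1 and G7 was 0.10 at adjusted p = 0.0425 and was lost in 9 of the 16 settings. Among these, 7 left out 1 library (any of G1 or G7, or NS replicate 1; values of 0.08 to 0.11, adjusted p between 0.0545 and 0.117), and upper quartile scaling gave 0.04 (adjusted p = 0.397).

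CCND2, the third D cyclin gene, had 0, 1 and 0 counts with G1, 1, 2 and 1 counts with G7, and 0, 0 and 2 counts with NS. It did not pass the filter. A count of 0 allows up to 3 counts, or 0.227 TMM-scaled CPM in the shallowest library, for counting error alone, so no difference in CCND2 was detectable at this depth.

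The makeup of the D cyclin messages moved with these values. Levels of different genes were compared per transcript length as TPM, from the merged exon length in GENCODE release 29. CCND3 made up 14.4%, 15.2% and 13.5% of D cyclin TPM with G1, 10.9%, 10.2% and 10.4% with G7, and 7.73%, 7.11% and 8.28% with NS. These shares do not depend on library scaling, and no library of one group overlapped another group. CCND1 remained the larger part throughout. On the log2 scale the ratio of CCND1 to CCND3 was lower with G1 than with NS by 1.01 and lower with G7 than with NS by 0.49, as differences of group means.

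**Figure D2:**
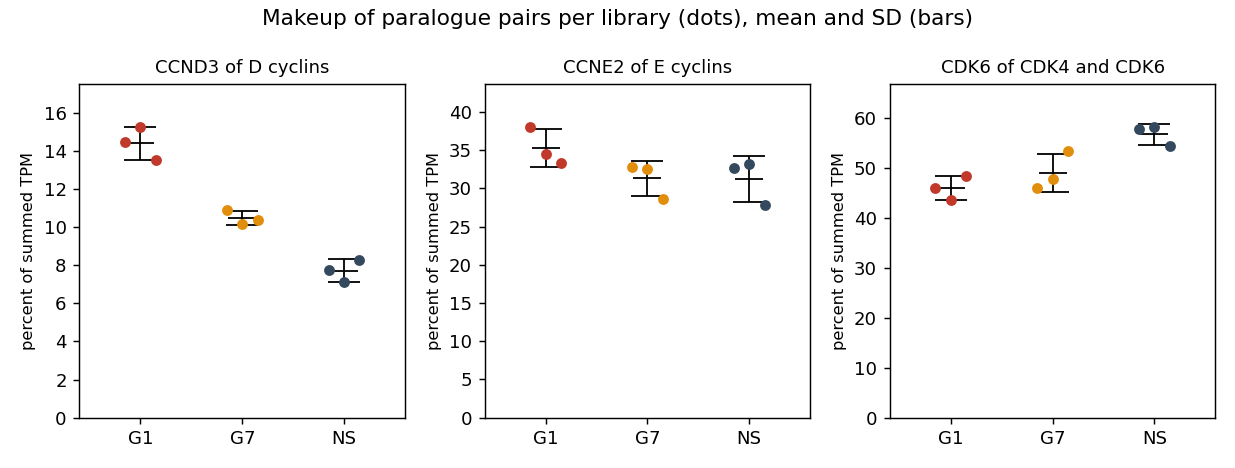
Share of CCND3 in the summed TPM of the D cyclins, of CCNE2 in that of the E cyclins, and of CDK6 in that of CDK4 and CDK6, in percent, for each library (dots) with mean and SD (bars, n = 3). The CCND3 share separated all groups, from 13.5% to 15.2% with G1 down to 7.11% to 8.28% with NS.

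Both E cyclin genes rose with both hairpins from low levels. CCNE1 (ENSG00000105173, chromosome 19, 29811898 to 29824308), a partner of CDK2 at the start of S phase, had 14.5, 16.3 and 16.0 CPM with G1, 11.1, 10.6 and 10.3 CPM with G7, and 7.03, 7.76 and 8.33 CPM with NS. All G1 libraries lay above all G7 libraries, and these above all NS libraries. Its log2 change was 1.01 ± 0.10 (SE) with G1 (adjusted p = 4.29e-08, edgeR test) and 0.46 ± 0.10 with G7 (adjusted p = 0.00247). G1 exceeded G7 by 0.55, at adjusted p = 4.21e-05.

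CCNE2 (ENSG00000175305, chromosome 8, 94879770 to 94896678), the paralogue with the same partner, had 15.4, 14.8 and 13.8 CPM with G1, 9.31, 8.82 and 7.13 CPM with G7, and 5.89, 6.66 and 5.53 CPM with NS. The groups did not overlap, and G7 replicate 3 was the lowest of its group. The log2 change was 1.29 ± 0.12 (SE) with G1 (adjusted p = 2.26e-08, edgeR test) and 0.48 ± 0.12 with G7 (adjusted p = 0.00864). The G7 call ended without G7 replicate 1 (0.39, adjusted p = 0.05003) and without NS replicate 3 (0.42, adjusted p = 0.05035), and it was 0.60 without G7 replicate 3. The difference between G1 and G7 was 0.80 (adjusted p = 4.64e-06, edgeR test). Part of CCNE2 lies over exons of genes on the opposite strand, among them INTS8, over 1633 of its 4397 merged exon bases, and the strand setting of the counting is not given in the sources used here. INTS8 averaged 88.3 CPM with G1, 63.0 with G7 and 63.7 with NS, and its part in the CCNE2 values was not tested.

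The proportion of the E cyclin genes differed little between groups. CCNE2 made up 38.0%, 34.5% and 33.3% of E cyclin TPM with G1, 32.8%, 32.5% and 28.6% with G7, and 32.7%, 33.2% and 27.8% with NS. The G7 and NS libraries overlapped, while the lowest G1 share, 33.3%, lay just above the highest NS share, 33.2%. Their summed level was 27.0 ± 1.93 TPM with G1, 17.9 ± 2.99 TPM with G7 and 13.3 ± 0.677 TPM with NS (SD, n = 3 each), and no library of one group overlapped another group.

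CCNA2 (ENSG00000145386, chromosome 4, 121816444 to 121823933), the cyclin of S phase progression and early mitosis, had 105, 108 and 114 CPM with G1, 61.9, 62.0 and 65.9 CPM with G7, and 44.0, 47.0 and 42.1 CPM with NS. The groups did not overlap. The log2 change was 1.30 ± 0.05 (SE) with G1 (adjusted p = 6.55e-13, edgeR test) and 0.51 ± 0.06 with G7 (adjusted p = 3.36e-06). G1 exceeded G7 by 0.78, at adjusted p = 9.07e-10.

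CDC25A (ENSG00000164045, chromosome 3, 48157146 to 48188402), the phosphatase that switches on CDK complexes, had the highest log2 change of the 8 tested members with either hairpin. It had 22.7, 21.3 and 22.3 CPM with G1, 11.8, 12.0 and 10.8 CPM with G7, and 7.10, 6.25 and 7.68 CPM with NS. No libraries overlapped between groups. The log2 change was 1.65 ± 0.09 (SE) with G1 (adjusted p = 3.70e-11, edgeR test) and 0.71 ± 0.10 with G7 (adjusted p = 5.18e-05), and G1 exceeded G7 by 0.94 (adjusted p = 3.84e-08). Neither CCNE1 nor CDC25A shares exon bases with another annotated gene. Genes on the opposite strand cover 497 of 4830 merged exon bases of CCND1 (LTO1) and 254 of 2798 of CCNA2 (EXOSC9). They also cover 24 of 5802 bases of CCND3 and 81 of 12260 of CDK6. EXOSC9 averaged 48.5 CPM with G1, 40.0 with G7 and 35.8 with NS, and LTO1 averaged 30.8, 31.6 and 33.8 CPM in the same order. The part of these genes in the values of the members was not tested.

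**Figure D3:**
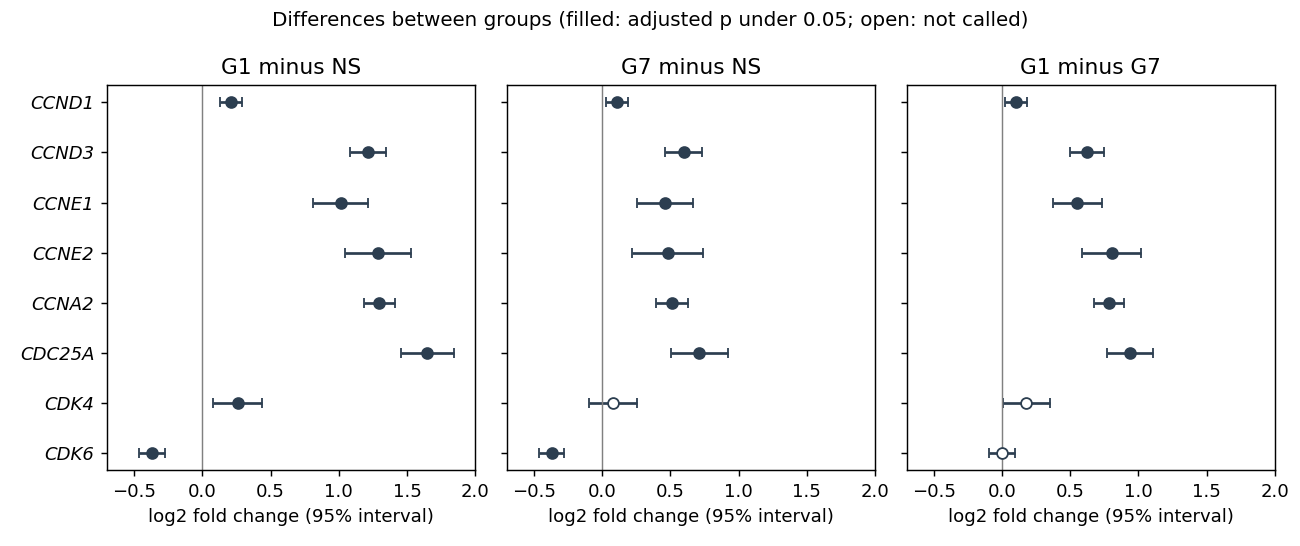
Log2 fold changes of the 8 tested members with 95% intervals in the 3 comparisons, filled where the edgeR adjusted p was under 0.05 and open where it was not. CDC25A lay highest at 1.65 with G1 and 0.71 with G7, and CDK6 lay at -0.37 with each hairpin.

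Promoter sequences are shown for CCNE1, CCNA2 and CDC25A, known E2F targets that rose, and for CDK6, which fell. They run from 250 bases before to 50 after the RefSeq start (GRCh38.p14), 5′ to 3′ on the strand of the gene, and such windows were found for 6 of the 10 members. Capitals mark matches to an E2F consensus, written as TTTCCCGC, TTTCGCGC, TTTGCCGC or TTTGGCGC, or to its core GCGGGA, on either strand.
CCNE1 (chr19:29811741-29812040, plus strand): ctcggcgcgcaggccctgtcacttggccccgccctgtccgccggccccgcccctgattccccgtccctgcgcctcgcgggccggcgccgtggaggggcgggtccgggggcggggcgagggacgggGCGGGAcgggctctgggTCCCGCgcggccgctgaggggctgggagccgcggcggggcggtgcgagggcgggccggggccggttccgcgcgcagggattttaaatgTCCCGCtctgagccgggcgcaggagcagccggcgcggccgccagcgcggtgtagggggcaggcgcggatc
CCNA2 (chr4:121823834-121824133, minus strand): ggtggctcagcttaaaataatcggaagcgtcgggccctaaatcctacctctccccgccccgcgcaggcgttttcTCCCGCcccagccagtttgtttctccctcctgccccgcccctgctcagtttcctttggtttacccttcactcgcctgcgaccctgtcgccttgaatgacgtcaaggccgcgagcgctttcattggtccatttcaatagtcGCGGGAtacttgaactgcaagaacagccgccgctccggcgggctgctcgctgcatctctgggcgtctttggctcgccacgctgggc
CDC25A (chr3:48188368-48188667, minus strand): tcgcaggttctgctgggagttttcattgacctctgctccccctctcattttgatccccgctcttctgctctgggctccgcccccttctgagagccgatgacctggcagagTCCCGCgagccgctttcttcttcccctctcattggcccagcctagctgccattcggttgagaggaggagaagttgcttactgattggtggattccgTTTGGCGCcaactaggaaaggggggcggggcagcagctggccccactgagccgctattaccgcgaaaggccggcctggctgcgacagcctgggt
CDK6 (chr7:92836524-92836823, minus strand): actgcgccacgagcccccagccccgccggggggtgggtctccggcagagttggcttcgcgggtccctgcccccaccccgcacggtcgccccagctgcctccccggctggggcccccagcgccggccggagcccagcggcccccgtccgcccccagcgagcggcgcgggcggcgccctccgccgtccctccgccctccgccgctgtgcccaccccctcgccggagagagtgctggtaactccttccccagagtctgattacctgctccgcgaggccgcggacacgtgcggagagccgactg

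The CDC25A window held the consensus TTTGGCGC, 44 bases before the start, and the only match to a consensus form among the 9 windows of the members. Of 35116 RefSeq windows, 3.31% held one. The core, which was added after the windows had been read, stood at 3 places in the CCNE1 window, 2 in that of CCNA2 and 1 in that of CDC25A, and 26.9% of all windows held it. The CDK6 window shown had none, while another CDK6 window and 1 of 3 CCND3 windows each had 1, and the CDK4 window had none. Thus 5 of the 6 members with a window held the core in some window, and CDK6, which fell, was among them. CCND3 and CDK6 had more than 1 window each, so this count per gene cannot be set beside the share of windows, 26.9%. The CHR letters TTTGAA or TTTAAA, an element of cell cycle promoters, were found in the CCNE1 window (TTTAAA, 28 bases before the start, which reads the same on both strands) and in 24.0% of all windows. Only these exact letters were searched. Near forms, such as CTTGAA after the second core of the CCNA2 window, were not, so a window without a match may still hold the element. A match of letters is a description of the sequence, and no binding was measured here.

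CDK6 was the member that fell with both hairpins. CDK6 (ENSG00000105810, chromosome 7, 92604921 to 92836594), a partner of the D cyclins, had 142, 143 and 143 CPM with G1, 139, 142 and 147 CPM with G7, and 183, 195 and 175 CPM with NS. All libraries of both hairpins lay below all NS libraries, and the hairpins overlapped each other. CDK6 fell by 0.37 on the log2 scale with G1 (SE 0.05, adjusted p = 1.26e-06, edgeR test) and by 0.37 with G7 (SE 0.04, adjusted p = 1.18e-05). The difference between G1 and G7 was 0.0020, with a 95% interval of -0.09 to 0.10 and adjusted p = 0.976, beside a difference in CBX5 of -0.52 between the same groups. Of the members called with both hairpins, CDK6 was the one with no called difference between them.

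CDK4 (ENSG00000135446, chromosome 12, 57747727 to 57756013), the other partner of the D cyclins, had 43.0, 48.0 and 39.5 CPM with G1, 42.4, 40.1 and 33.2 CPM with G7, and 34.8, 36.3 and 38.0 CPM with NS. The G1 libraries lay above those of NS by a narrow margin, and the G7 libraries overlapped both groups, with G7 replicate 3 the lowest of all. The log2 change with G1 was 0.26 ± 0.09 (SE; adjusted p = 0.0140, edgeR test). It was no longer called without G1 replicate 2 (0.18, adjusted p = 0.0911), without NS replicate 1 (0.23, adjusted p = 0.0548) and with upper quartile scaling (0.17, adjusted p = 0.0939). With G7 the log2 change was 0.08, with a 95% interval of -0.10 to 0.26 (adjusted p = 0.550), and 0.18 without G7 replicate 3 (adjusted p = 0.0650). The difference between G1 and G7 was 0.18 at adjusted p = 0.0845, and 0.08 without G7 replicate 3 (adjusted p = 0.377). It was called without the filter on low counts (0.21, adjusted p = 0.00766), without G1 replicate 3 (0.24, adjusted p = 0.0305) and without G7 replicate 1 (0.26, adjusted p = 0.0212).

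TSPAN31, on the opposite strand, covers 1369 of the 3168 merged exon bases of CDK4. How reads over those bases were counted or set aside is uncertain where strand was not used in counting. TSPAN31 averaged 19.3 ± 1.06 CPM with G1, 26.4 ± 2.82 CPM with G7 and 32.1 ± 1.36 CPM with NS (SD, n = 3 each), and its log2 change was -0.73 with G1 (adjusted p = 3.08e-07, edgeR test). Its part in the CDK4 values was not tested.

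The balance of these kinases shifted between the groups. CDK6 made up 46.0%, 43.5% and 48.3% of the summed TPM of CDK4 and CDK6 with G1, 45.8%, 47.7% and 53.3% with G7, and 57.6%, 58.1% and 54.3% with NS. Every hairpin library lay below every NS library, the closest being G7 replicate 3 at 53.3% and NS replicate 3 at 54.3%. Their summed level was 72.6 ± 7.53 TPM with G1, 69.8 ± 10.7 TPM with G7 and 80.4 ± 1.95 TPM with NS (SD, n = 3 each), the G7 libraries lay below those of NS, and the G1 libraries overlapped those of NS.

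CDK2, the partner of cyclins E and A, was listed at 0 counts in all 9 libraries. The genes on the opposite strand that overlap it, among them PMEL, cover 654 of its 3894 merged exon bases. Other CDK or cyclin genes at 0 counts in all libraries were CDK3, CDK11A, CDK11B and CCNJ, and 4324 of 19693 protein-coding rows were at 0 throughout. Because CDK2 is a gene that dividing cells commonly use, its 0 is given only as listed, and no level or change of CDK2 is reported.

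Per transcript length, CCND1 was the most abundant member in every group. In G1 cells the order was CCND1 (305 ± 13.6 TPM), CCNA2 (111 ± 3.94), CCND3 (51.3 ± 5.72), CDK4 (39.3 ± 5.79), CDK6 (33.2 ± 1.74), CCNE1 (17.5 ± 1.42), CDC25A (15.3 ± 0.647) and CCNE2 (9.53 ± 0.924 TPM; SD, n = 3). Library values of CDK4 overlapped those of both CCND3 and CDK6 there, so these neighbours did not differ beyond their spread. In G7 cells CCND1 (292 ± 37.8 TPM) and CCNA2 (65.9 ± 4.81) again came first, and CDK4 (35.9 ± 7.94), CCND3 (34.2 ± 5.00) and CDK6 (33.9 ± 2.81 TPM) overlapped.

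In NS cells CCND1 (280.2 ± 14.3 TPM) was followed by CCNA2 (48.0 ± 1.21) and CDK6 (45.6 ± 1.23), which overlapped, then CDK4 (34.9 ± 2.32), CCND3 (23.5 ± 2.92), CCNE1 (9.17 ± 0.870), CDC25A (5.18 ± 0.758) and CCNE2 (4.15 ± 0.211 TPM). By group means, CDK6 stood in place 5 of the order with G1 and with G7 and in place 3 with NS. CCND3 stood in place 3 with G1, 4 with G7 and 5 with NS. Because of the overlaps given above, neighbours in places 3 to 5 with G1 and with G7 were not resolved, nor were CCNA2 and CDK6 with NS. TPM here is not TMM-scaled, and it treats every merged exon base of a gene as transcribed, which lowers the level of genes with long alternative exons. Genes on the opposite strand cover 1369 of 3168 merged exon bases of CDK4 and 1633 of 4397 of CCNE2. How this affected their TPM, their places in the order and the shares above was not tested.

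**Figure D4:**
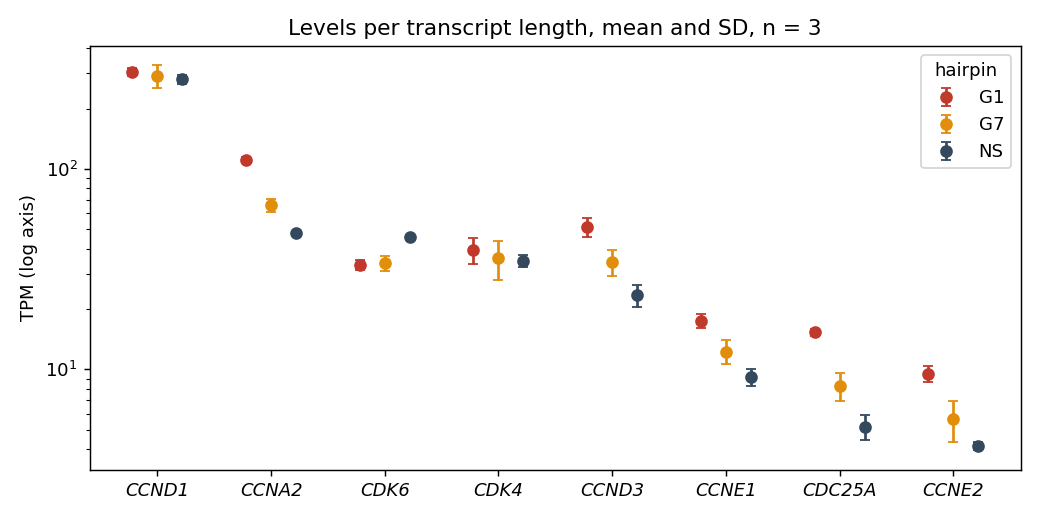
Level of each tested member in TPM (log axis), as mean and SD of 3 libraries per hairpin, ordered by the level with NS. Group means of CCND1 ran from 280.2 to 305 TPM, and its G7 libraries ran from 248 to 316 TPM. CDK6 was lower with G1 and G7 than with NS. The other members apart from CCND1 and CDK4 were higher with the hairpins, but in TPM the CCNE2 libraries of G7 and NS overlapped.

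Other genes of the same control system were examined as lists chosen for their function, with earlier results of these data known. Each list is read, as a description, beside the background shares above. The mitotic cyclins CCNB1 and CCNB2, their kinase CDK1, and the G2 phase cyclin CCNF were all called higher with both hairpins. CCNB1 averaged 254 ± 10.3 CPM with G1, 158 ± 8.32 CPM with G7 and 119 ± 3.79 CPM with NS (SD, n = 3 each), a log2 change of 1.10 with G1 and 0.41 with G7. CDK1 rose by 0.91 with G1 and 0.52 with G7, CCNB2 by 0.88 and 0.34, and CCNF by 0.73 and 0.33, the last with G7 losing its call without G7 replicate 1 or 2 or NS replicate 1 or 2 (adjusted p up to 0.116). All 18 S phase genes known as E2F targets were also called higher with both hairpins, with a median of 1.20 with G1 and 0.53 with G7. CDT1, a licensing factor, and FBXO5, an inhibitor of the anaphase-promoting complex, are named after their values were seen. The call of FBXO5 with G7 (0.21, adjusted p = 0.0483, edgeR test) was lost in 15 of 16 alternative settings. CDT1 (0.19 with G1 and 0.20 with G7) was lost with upper quartile scaling and without G1 replicate 1 or NS replicate 1 or 2 in both comparisons, and also without G7 replicate 1 with G7 (adjusted p up to 0.219). RRM2, a subunit of ribonucleotide reductase, rose by 1.58 with G1 and 0.56 with G7, and MCM4, a subunit of the replicative helicase, by 1.52 and 0.59.

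Among 10 tested pocket protein and MuvB complex genes, which repress or activate cell cycle promoters, 8 were called higher and 1 lower with G1, and 6 higher and 1 lower with G7. Shares over all tested genes were 30.4% higher and 28.7% lower with G1, and 13.1% and 9.64% with G7. MYBL2, the partner of the MuvB core in S phase, averaged 279 ± 10.4 CPM with G1, 138 ± 4.80 CPM with G7 and 76.6 ± 2.64 CPM with NS (SD, n = 3 each), a log2 change of 1.86 with G1 and 0.85 with G7. The pocket proteins moved in different directions. RBL2, which encodes p130 of resting cells, fell by 0.57 with G1 and by 0.20 with G7, whereas RBL1, which encodes p107, rose by 0.66 with G1 and 0.23 with G7, the G7 call ending without G7 replicate 2 or NS replicate 1 or 3 (adjusted p up to 0.0600). RB1 rose by 0.41 with G1 and had 0.13 with G7, which was not called (adjusted p = 0.0788, edgeR test). TFDP1, the dimer partner of E2F proteins, rose by 0.81 with G1 and 0.31 with G7.

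Of 7 tested CDK inhibitors and inhibitory kinases, 4 were called higher and 1 lower with G1, and 2 higher and 0 lower with G7. As 59.1% of all tested genes were called with G1 and 22.7% with G7, these few counts show nothing particular to the list. CDKN1A, which encodes p21, rose by 0.53 with G1 and had 0.03 with G7 (adjusted p = 0.900, edgeR test), and G1 exceeded G7 by 0.50 (adjusted p = 2.26e-04). CDKN1B, which encodes p27, fell by 0.19 with G1 and had 0.0015 with G7 (adjusted p = 0.988). CDKN2C, which encodes an inhibitor of CDK4 and CDK6, rose by 0.59 with G1 and 0.60 with G7. CDKN2D, of the same family, rose by 0.90 with G1, and its G7 value of 0.54 (adjusted p = 0.0383) lost its call with DESeq2 and without G7 replicate 1 or 2 or any 1 NS library (adjusted p up to 0.117). PKMYT1, an inhibitory kinase of CDK1, rose by 0.83 with G1. Its G7 value of 0.32 was not called (adjusted p = 0.0743, edgeR test), but was without the filter on low counts and without G7 replicate 2 or NS replicate 3, with a range of 0.21 (without NS replicate 2) to 0.54 (without NS replicate 3) over the alternatives. WEE1 was not called with either hairpin (0.13 and 0.05). CDKN2A and CDKN2B, also of the inhibitor family, were listed at 0 in all libraries.

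Of the other activators, CDC25B rose by 0.57 with G1 and 0.40 with G7, and CDC25C by 0.49 and 0.32. CDC37, a chaperone of CDK4, rose by 0.23 with G1. The subunits of the CDK-activating kinase gave -0.11 for CDK7, -0.17 for CCNH and -0.03 for MNAT1 with G1. Only CCNH of these was called (adjusted p = 0.0362, edgeR test), and its call ended with DESeq2, without the filter on low counts and without G1 replicate 2 or 3 or NS replicate 1 or 2 (adjusted p up to 0.153). In the list as a whole 3 of 6 were called higher and 1 lower with G1, and 2 and 0 with G7. Beside 59.1% of all tested genes called with G1 and 22.7% with G7, this shows nothing particular to the list.

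Of 17 genes that control the breakdown of cyclins and CDC25A, 12 were called higher and 3 lower with G1, or 8 and 3 with upper quartile scaling, and 7 higher and 0 lower with G7. Across all tested genes 30.4% were called higher and 28.7% lower with G1, and 13.1% and 9.64% with G7. CDC20, which directs the anaphase-promoting complex to cyclin A, rose by 1.23 with G1 and 0.39 with G7. The cullin gene CUL1, the scaffold of the ubiquitin ligases of cyclin E, rose by 0.67 and 0.19, and CKS1B, the cofactor of SKP2, by 0.73 and 0.40. AMBRA1, a receptor for D cyclin breakdown named after its values were seen, fell by 0.30 with G1 and had -0.04 with G7 (adjusted p = 0.653, edgeR test).

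**Figure D5:**
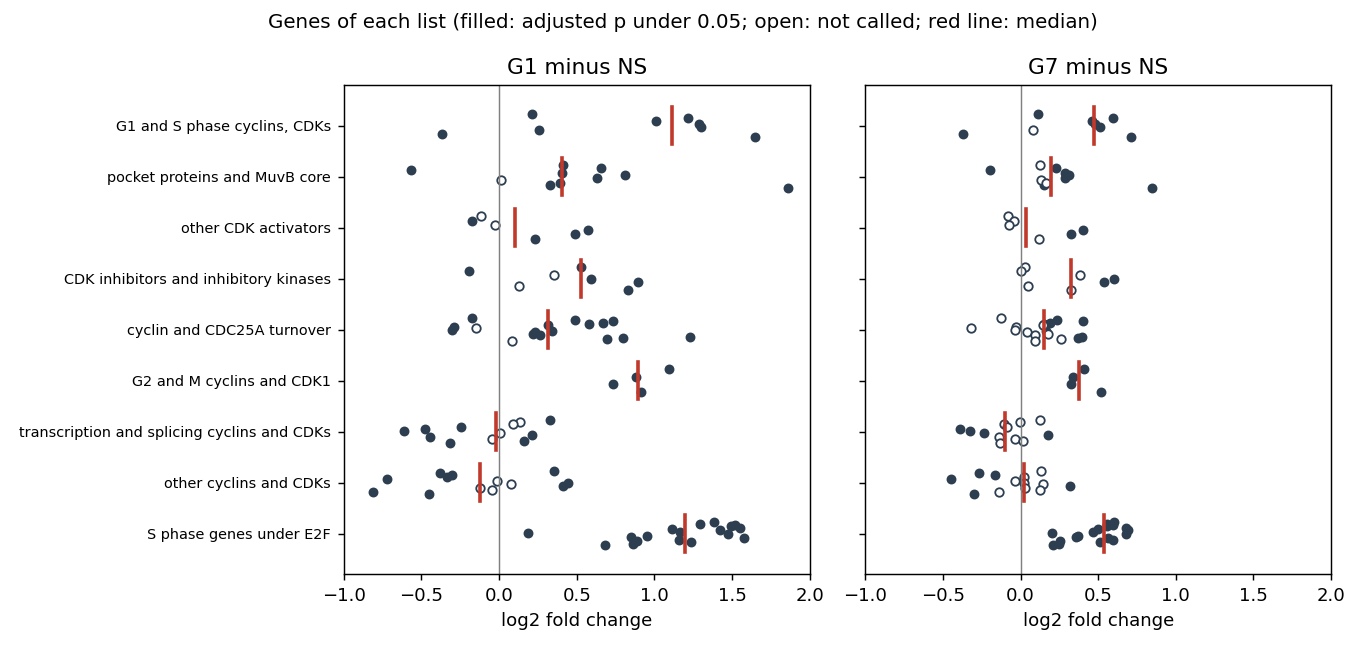
Log2 fold changes against NS for the tested genes of each list with G1 (left) and G7 (right), filled where the edgeR adjusted p was under 0.05, with the list median as a red line. The medians of the S phase genes lay at 1.20 with G1 and 0.53 with G7, while those of the transcription and splicing cyclins and CDKs lay at -0.02 and -0.10.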

How the data were processed

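Poly-A RNA of 9 HCC827 libraries was sequenced. The authors deposited unnormalized whole-number counts per gene, with Ensembl identifiers. The tools and build named in the submitters' processing notes are TopHat2 2.1.0, HTSeq 0.6.0 and hg38 (GRCh38). Strand setting, read filters and annotation release: not given in the sources used here. Per the labels' protocols the libraries are strand-specific (dUTP). How reads in overlapping genes were counted or set aside is likewise not given, and some may be missing from the counts.

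Symbols, coordinates and exon lengths came from GENCODE release 29, which matched 57055 of 60675 rows (the other 3620 held 0.0250% of counts). The tests used edgeR 4.0.16 (R 4.3.3): filterByExpr, TMM and a quasi-likelihood fit of all 9 libraries with 1 mean per group, with Benjamini-Hochberg adjustment over 13264 genes. Adjusted p-values are from this test unless another is named. Intervals are at 95%. DESeq2 1.42.0, other scalings and left-out libraries were alternatives. The procedure was tested on simulated data in which far fewer genes changed than were called here, as many up as down. That test therefore does not bear on the choice of scaling. Replicates differed by more than sampling noise (chi-square per degree of freedom 1.51 to 24.7), and all were kept. A count of 0 allows up to 3 counts, for counting error only. Correlations of deviations ran from -0.0763 to 0.199 between same-numbered replicates and from -0.191 to 0.186 between differently numbered ones. Between G1 and G7 the same-numbered values were all positive (0.0322, 0.141 and 0.199), so whether the numbers pair libraries is not settled.

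Members and lists were chosen with earlier results of these data known. Named were the members, CBX5, the markers, all genes of the lists of activators, inhibitors, pocket proteins and mitotic cyclins, the 4 smallest p of other lists with G1, and 3 genes of most similar pattern per member. Those printed are examples picked after their values were seen, and AMBRA1, CDT1, FBXO5 and the genes that overlap members were named outside this rule.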

Additional observations from a re-analysis of the deposited data

How the results depend on the processing

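CBX5 kept its direction and its calls, and each count of calls, of all genes and of members, stayed within 1.5 times the main count under all 16 alternatives, while the balance of higher and lower calls turned with upper quartile scaling. Over all genes, 6796 to 8260 were called with G1 against NS, 2260 to 3321 with G7 against NS and 4888 to 6097 between G1 and G7. Upper quartile scaling shifted the median log2 change of all genes by -0.09 with G1 and -0.03 with G7, and turned the split to 3066 higher and 4815 lower with G1 (4031 and 3806 with TMM), 1398 and 1603 with G7 (1735 and 1279), and 2346 and 3751 between G1 and G7 (3092 and 2870). Of 384 log2 changes of members under the alternatives, 351 kept their direction and side of the threshold, 27 lost a call, 3 gained one and 3 turned sign. Those 3 were CDK6 between G1 and G7, never called, at -0.0577 with upper quartile scaling, -0.00184 with only those groups fitted, and between -0.0147 (without G7 replicate 1) and 0.0245 (without G7 replicate 3) with 1 library left out. Lost or gained calls concerned CCND1, CDK4 and CCNE2 and are given with those genes, and the cause was not tested. With the replicate number as a block, 7909, 3117 and 6069 genes were called in the 3 comparisons, and no call of a member changed. Whether the numbers pair the libraries was not settled. CCND2, with at most 2 counts in a library, could not be compared, and the effect of depth on the other members was not tested.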

Other observations

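Cyclins and CDKs with roles outside the cell cycle, or less well known roles, were called in both directions. Of 12 tested cyclins and CDKs of transcription and splicing, 3 were called higher and 5 lower with G1 (1 and 6 with upper quartile scaling), and 1 higher and 3 lower with G7 (0 and 4 with upper quartile scaling). Over all tested genes 30.4% were called higher and 28.7% lower with G1, and 13.1% and 9.64% with G7, so with so few genes these counts show nothing particular to the list. CCNL1 and CCNL2, cyclins linked to splicing factors, fell by 0.48 and 0.61 with G1 and by 0.39 and 0.33 with G7. Of 13 other tested cyclins and CDKs, 3 were called higher and 6 lower with G1 (3 and 7 with upper quartile scaling; median log2 change -0.12), and 1 higher and 4 lower with G7 (median 0.02, or -0.0086 with upper quartile scaling). CDK18 averaged 27.8 ± 0.848 CPM with G1, 44.0 ± 5.44 CPM with G7 and 48.7 ± 0.904 CPM with NS (SD, n = 3 each). It fell by 0.81 with G1, and its change of -0.14 with G7 was not called (adjusted p = 0.163, edgeR test). Without G7 replicate 3, at 50.3 CPM the highest G7 library, that change was -0.25 and called (adjusted p = 0.00273), and without G7 replicate 1 it was -0.09 (adjusted p = 0.471). The direct difference between G1 and G7 was -0.67 (adjusted p = 8.13e-07). CCNG2, an atypical cyclin of arrested cells, fell by 0.38 with G1 and by 0.27 with G7, while CDK14 rose by 0.41 and 0.32.

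The genes whose log2 CPM followed a member most closely over the 9 libraries are given as a description, since the libraries form 3 groups and many genes share such a pattern. For CCNA2, Pearson's r was above 0.95 with 975 of 8599 genes of at least 10 CPM on average, with AHSA1 first (0.999), then LDHA and HMMR. CDC25A was nearest to UNG (0.998), LMNB2 and NOP2, CCND3 to UBA1 (0.996), CTPS1 and WRAP53, and CCNE1 to TIGAR (0.994), PPP1R7 and MCM3. CCNE2 was nearest to ACO1 (0.994), UHRF1BP1L and MRS2. CCND1 was nearest to DUSP4 (0.993), FAM122B and SLC5A6. CDK6 had 38 genes above 0.95, led by CANX (0.993), TAF1D and UGGT1, and CDK4 had 3, MRPL54 (0.982), TPRG1L (0.960) and TRAPPC4 (0.952).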
